A study of Mus musculus with 51 samples.

Results

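Interferon-responsive genes, the genes that cells switch on once interferon has bound its receptor, were followed in alveolar macrophages taken from mouse lungs after spores of the mould Aspergillus fumigatus (conidia) had been instilled. The set was a list of 34 genes chosen by gene symbol, with no threshold on measured values. Of these, 32 had an array probe set annotated to their symbol alone, out of 12393 genes so represented. Ifi44 had no probe set in the annotation used and Isg15 had only a probe set shared with another symbol, so neither is given a value. Where a gene had several probe sets, the one with the highest mean over all 51 arrays stood for it, which was a choice for 7 members.

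The mice were C57Bl/6 (WT) or gp91phox-/- (KO), whose phagocytes lack the membrane subunit of the NADPH oxidase encoded by Cybb and so cannot make a normal oxidative burst. The macrophages, the resident phagocytes of the airspaces, were collected from untreated mice (0 h) and at 2 h and 4 h after a mock instillation or after conidia at the doses labelled e6 and e7. Each of these 7 conditions had 4 WT and 3 KO arrays, and WT mice given polystyrene beads for 4 h added 2 arrays, which makes 15 groups, 30 WT arrays and 21 KO arrays. The question stated for the series is whether macrophages of a normal and an immune-compromised host respond differently to conidia. The labels call the arrays of a group biological replicates without saying how many mice each one represents, so p-values measure the spread between arrays as labelled. Age, sex and breeding of the animals are not given in the sources used here. For the WT 4 h mock arrays the treatment field names conidia and the title names mock, and the title was followed.

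Type I interferons (interferon alpha and beta) signal through the receptor chains Ifnar1 and Ifnar2 and the kinases Jak1 and Tyk2 to transcription factors, Stat2 and Irf9 among them, that act at the interferon-stimulated response element (ISRE) of target genes. Interferon gamma signals through Ifngr1 and Ifngr2, Jak1 and Jak2, and its targets often carry a gamma-activated site (GAS). The targets include enzymes and binding proteins that block viruses, GTPases that attack vacuoles holding microbes, parts of the antigen-processing machinery and chemokines that attract T cells. Alveolar macrophages are known as an early source of type I interferon in viral infection of the lung.

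Values are log2 of the array signal, and a difference is a difference of log2 means with its limma standard error. A gene was called at an adjusted p under 0.05 (limma, Benjamini-Hochberg over 22626 probe sets). Levels are compared between groups and never between genes. A log2 signal under 5.64 (a signal of 50) was treated as dim: 17 members had all 15 group means at or above it, 14 were under it in some groups, and Mx2 was under it in all. Cybb was at 10.59 to 12.12 in the 28 WT arrays of the shared conditions and at 6.77 to 9.06 in the 21 KO arrays, with no overlap. The mean log2 signal of S100a8 and S100a9, calcium-binding proteins abundant in neutrophils, was high in 3 WT arrays: mock at 4 h replicate 3 (13.33), e6 at 4 h replicate 4 (12.05) and e7 at 4 h replicate 3 (11.52), against a median of 6.55 over all arrays. These 3 arrays touch several results below, which are given with and without them.

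The comparison of the genotypes called the most members. It pooled 28 WT and 21 KO arrays, while comparisons of single groups held 2 to 4 arrays in each. Counts of calls are therefore not a measure of which difference was larger. Averaged over the 7 shared conditions, 14 of 32 members (43.8%) were higher in KO than in WT macrophages, beside 21.4% of all genes, and only Trim30a was lower (3.12% of members, beside 13.6% of all genes). The difference was above 0 for 26 members, and its median was 0.28, against 0.09 over all genes. Antiviral effectors and interferon-inducible GTPases made up most of the calls, with 7 of 12 and 4 of 6. Irf7 was the only called transcription factor of 5, Cxcl10 the called chemokine of the pair, and none of the 3 antigen-processing genes was called by its main probe set. Of the 14 members, 10 had the higher mean in KO in each of the 7 conditions.

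**Figure D1:**
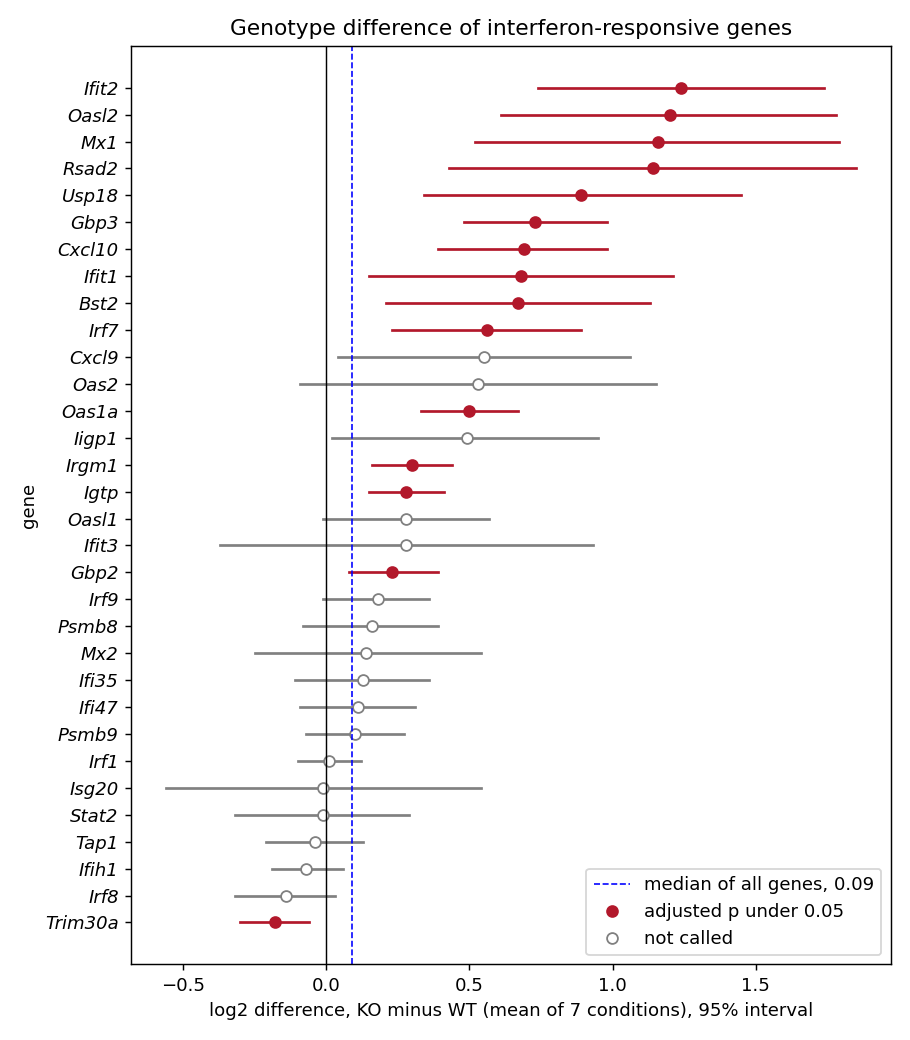
Points are KO minus WT log2 differences averaged over the 7 shared conditions, with 95% intervals from limma, for the 32 members (vertical axis); filled points passed the adjusted threshold and the dashed line is the median of all genes, 0.09. Ifit2, Oasl2, Mx1 and Rsad2 have the largest differences, 1.14 to 1.24, but with signals under 50 raised to 50 those of Oasl2 and Mx1 were 0.23 and 0.1, under the 0.73 of Gbp3; Trim30a is the one called member below 0.

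Upstream of the members, no interferon gene itself was called. All 9 measured ligand genes had a difference above 0 (median 0.35) and 0 of 9 passed in limma. Their group means were dim in every WT group of the shared conditions. Over all genes the median was 0.09, with 2651 called higher and 1685 lower. With dim probe sets left out, 1518 genes were called higher and 1688 lower, so dim genes at large also read higher in KO. Ifnb1, the gene of interferon beta, ranged from 3.97 to 5.57 (median 4.88) in WT and from 4.19 to 6.9 (median 5.34) in KO. The ranges overlapped, no WT array and 6 KO arrays reached 5.64, and the difference was 0.33 ± 0.14 (adjusted p = 0.0558). Ifng, the gene of interferon gamma, stayed under 5.64 in every array of both genotypes. Among 5 receptor genes only Il10rb, a chain of the interferon lambda and interleukin 10 receptors, was higher. Ifnar2 was at a median of 9.8 in WT and 9.76 in KO, a difference of -0.04 ± 0.08. Of 9 signalling genes, Jak1 was higher (0.26 ± 0.09, adjusted p = 0.0208) and Irf2, a repressor of interferon targets, was lower (-0.31 ± 0.1, adjusted p = 0.0117). Of 10 genes that sense microbes upstream of interferon, the kinase gene Ikbke was higher and the adaptor gene Mavs was lower.

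Ifit2 encodes a tetratricopeptide protein that limits translation in infected cells. Its log2 signal ran from 2.44 to 6.88 (median 5.71) over 28 WT arrays and from 5.65 to 7.91 (median 6.68) over 21 KO arrays. In 20 of 21 KO arrays it lay above the WT median, and in 3 of the 7 conditions every KO array lay above every WT array. The difference was 1.24 ± 0.25, or 2.36-fold (adjusted p = 0.000188), and it was widest at 2 h with e7 conidia, 2.22, where KO arrays read 6.96, 7.54 and 7.44 and WT arrays 4.89, 5.59, 4.76 and 5.17.

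Rsad2 encodes viperin, a radical-SAM enzyme that makes a chain-terminating nucleotide. It ran from 5.1 to 11.14 (median 6.56) in WT and from 6.66 to 10.25 (median 8.13) in KO. All 21 KO arrays were above the WT median, although the highest value of all belonged to a WT array, mock at 4 h replicate 3. The difference was 1.14 ± 0.35 (adjusted p = 0.0111), and it was 1.55 without the 3 WT arrays high in S100a8 and S100a9, an alternative added after seeing the data. It was under 0 in 2 of the 7 conditions, lowest at 4 h with e7 conidia (-0.21), and widest at 2 h with e7 conidia (2.61), where WT arrays read 5.74, 5.64, 5.53 and 5.1 and KO arrays 7.86, 8.35 and 8.13. Of the other Rsad2 probe sets, one was also higher in KO (0.87, adjusted p = 0.00938) and the dimmest read 0.26 (adjusted p = 0.485).

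Oas1a encodes an oligoadenylate synthetase that activates RNase L on sensing double-stranded RNA. It was bright in every array, at 8.09 to 9.68 (median 9.05) in WT and 8.59 to 10.39 (median 9.46) in KO. The groups overlapped, 18 of 21 KO arrays exceeded the WT median, and the difference was 0.5 ± 0.08 (adjusted p = 1.58e-05). Oasl2, a related protein with ubiquitin-like domains, was dimmer, at 2 to 7.79 (median 4.47) in WT and 4.28 to 7.21 (median 5.65) in KO, with a difference of 1.2 ± 0.29 (adjusted p = 0.00147). It reached 5.64 in only 3 WT arrays, and a floor of 50 on the signal reduced the difference to 0.23, which was not called.

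Mx1, Ifit1 and Usp18 were dim in most WT arrays, so their sizes are less firm. Mx1, a dynamin-like GTPase against influenza viruses that is known to be disrupted in many laboratory strains, reached 5.64 in 0 WT and 6 KO arrays, with a difference of 1.16 ± 0.31 (adjusted p = 0.00412) that was 0.1 with the floor and missed the threshold after quantile normalization (0.75, adjusted p = 0.0609). Ifit1, which binds viral RNA caps, reached it in 2 WT and 8 KO arrays, with a difference of 0.68 ± 0.26 (adjusted p = 0.0413) that lost its call in 23 of the 49 fits that each left out 1 array, with the floor (0.18) and after quantile normalization (0.33). Usp18, the protease that removes the ubiquitin-like protein ISG15 and damps receptor signalling, reached it in 2 WT and 10 KO arrays, with a difference of 0.89 ± 0.27 (adjusted p = 0.011) that was not called with the floor (0.19) or after quantile normalization (0.52). Bst2 (tetherin), which holds budding virus at the cell surface, ran from 3.21 to 7.29 (median 6.67) in WT and from 6.23 to 7.98 (median 7.13) in KO, a difference of 0.67 ± 0.23 (adjusted p = 0.0208). Its call was lost after quantile normalization and with the ratio of 3' to 5' signal of control transcripts as a covariate.

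The remaining effectors, Ifit3, Isg20, Mx2, Oas2 and Oasl1, had differences of -0.01 to 0.53 that did not pass. The exonuclease gene Isg20 was the one effector with a difference under 0, and its condition differences ran from -1.48 at 4 h mock to 0.89 at 2 h mock. At 4 h mock the difference of means was -0.62 without WT replicate 3.

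**Figure D2:**
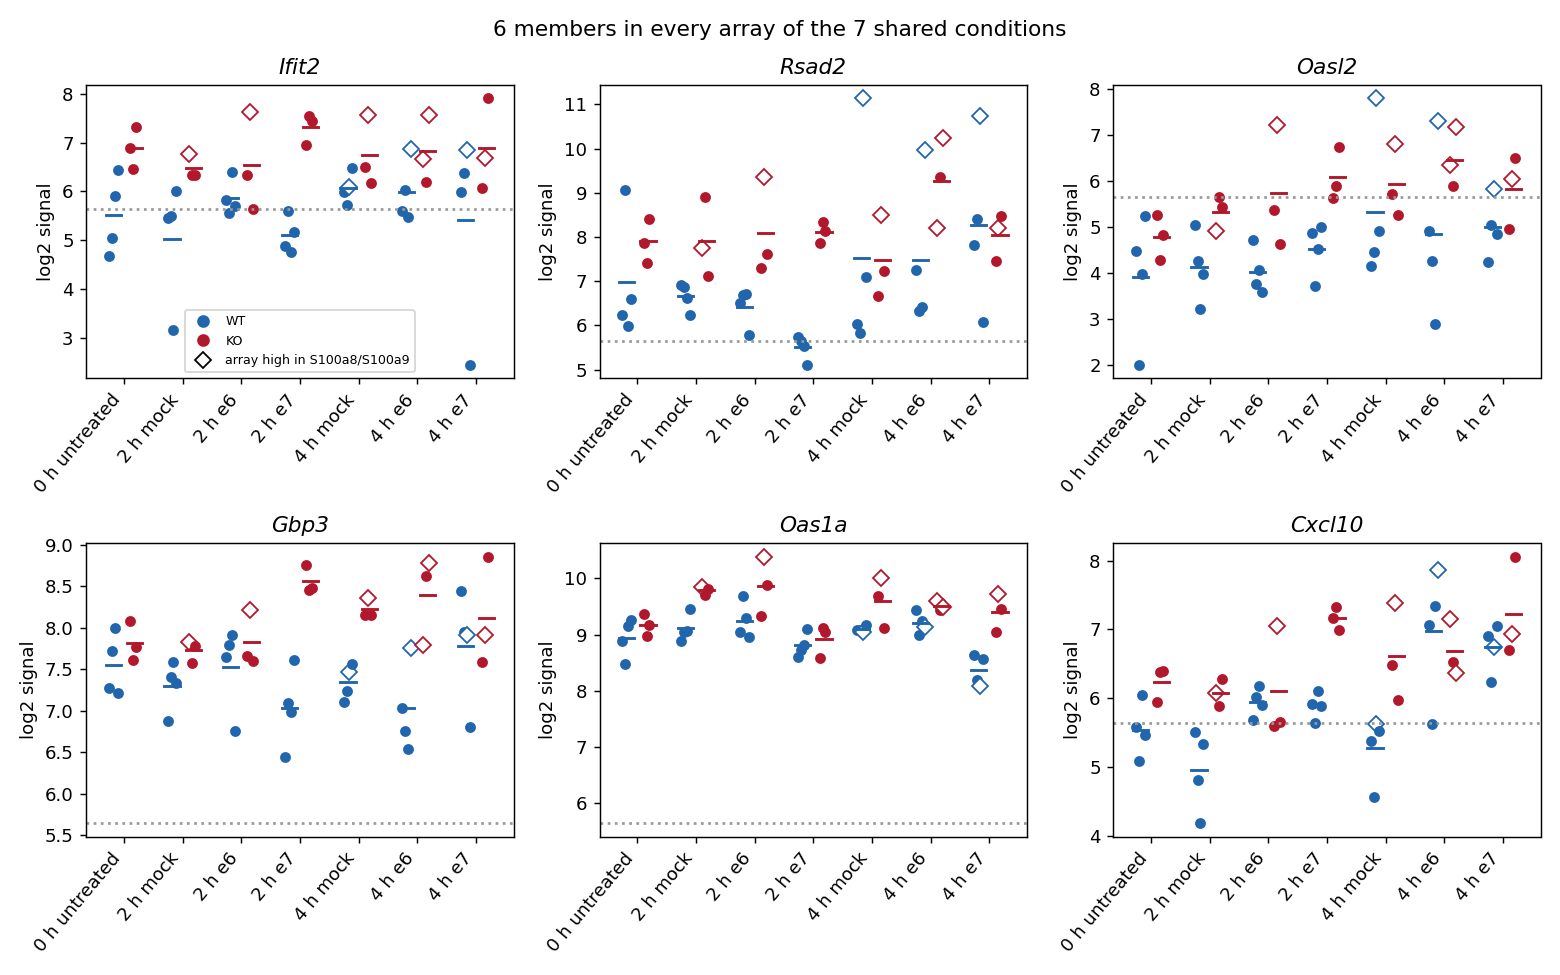
Each point is 1 array (log2 signal, vertical axis) for 6 members in the 7 conditions that both genotypes had, WT blue and KO red, with group means as bars; open diamonds mark the 9 arrays whose S100a8 and S100a9 mean log2 exceeded 8.55 and the dotted line is 5.64. KO points lie mostly above WT points for Ifit2 and Gbp3, and the highest WT values of Rsad2 and Oasl2 are diamonds.

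Irf7, the factor that amplifies interferon alpha transcription, was the transcription factor that differed. It ran from 4.69 to 6.96 (median 6.14) in WT and from 5.52 to 7.52 (median 6.51) in KO, a difference of 0.56 ± 0.16 (adjusted p = 0.0071). Its mean was higher in KO in 7 of 7 conditions, by 0.05 at 4 h mock and by 1.1 at 4 h with e7 conidia. The call of Irf7 was lost after quantile normalization (adjusted p = 0.128 in limma). Irf1, Irf8, Irf9 and Stat2 had differences between -0.14 and 0.18, none called. Ifih1, which encodes the RNA sensor MDA5, differed by -0.07.

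Gbp3 gave the smallest adjusted p of the set. It belongs to the guanylate-binding proteins, large GTPases that coat and break the vacuoles of intracellular microbes. Its log2 signal was 6.44 to 8.44 (median 7.38) in WT and 7.58 to 8.86 (median 8.08) in KO, and all 21 KO arrays exceeded the WT median. The difference was 0.73 ± 0.12, or 1.66-fold (adjusted p = 1.39e-05), positive in 7 of 7 conditions and widest at 2 h with e7 conidia (1.54). There KO arrays read 8.76, 8.46 and 8.48 and WT arrays 6.44, 7.09, 6.98 and 7.61, with no overlap. Ifit2 and Rsad2 were widest in that condition too. Its log2 ratio of 3' to 5' signal of control transcripts was 2.09 to 4.85 in WT and 1.45 to 3 in KO. The KO minus WT response to e7 conidia at 2 h had a median of 0.2 over all genes, which was -0.01 after quantile normalization. The part of RNA quality or scaling in these gaps was not tested.

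The other called GTPases were smaller in size. Irgm1, an immunity-related GTPase that guards host membranes, was 8.04 ± 0.06 (SD, n = 4) in WT and 8.67 ± 0.25 (SD, n = 3) in KO at 2 h mock, its widest gap, and differed by 0.3 ± 0.07 on average (adjusted p = 0.00123). Igtp (Irgm3), a related GTPase of the endoplasmic reticulum, differed by 0.28 ± 0.07 (adjusted p = 0.00109) and was near equal at 4 h mock (0.02). Gbp2 differed by 0.23 ± 0.08 (adjusted p = 0.0168), and its second probe set by 0.42 (adjusted p = 0.000438). Iigp1 (0.49 ± 0.23) and Ifi47 (0.11) did not pass.

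Cxcl10, a ligand of CXCR3 that draws T and NK cells, ran from 4.18 to 7.87 (median 5.79) in WT and from 5.6 to 8.06 (median 6.48) in KO. Of the KO arrays, 19 of 21 exceeded the WT median, and in 3 conditions the genotypes did not overlap. The difference was 0.69 ± 0.15 (adjusted p = 0.000444), with the sign reversed only at 4 h with e6 conidia (-0.29). Cxcl9, which uses the same receptor, differed by 0.55 without passing. The immunoproteasome genes Psmb8 and Psmb9 and the peptide transporter gene Tap1 differed by 0.16, 0.1 and -0.04. The other Tap1 probe sets were dim, at means of 1.82 to 3.68 over all arrays, and were called higher in KO. They differed by 0.89, 1.02 and 1.05 (adjusted p = 0.0223, 0.0143 and 0.00471 in limma), so the call for Tap1 depends on the probe set. Trim30a, a ubiquitin ligase that restrains inflammatory signalling, was lower by its main probe set (-0.18 ± 0.06, adjusted p = 0.0188) and higher by its other one (0.33, adjusted p = 0.007), so its direction depends on the probe set.

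Promoter sequence was examined next. The ISRE and the GAS are sites through which interferon acts, so genes chosen as its targets are likely to hold them more often than genes at large. RefSeq windows (GRCm38.p6) running from 250 bases before to 50 bases after the annotated start were matched by symbol for 27 of 32 members, counting every start listed for a gene; Mx1, Mx2, Oas2, Usp18 and Iigp1 were not matched. An ISRE was searched as GAAANNGAAA on both strands and a GAS as TTCNNNGAA, which reads the same on both, and in 24 of all windows the matches of both motifs overlapped. ISRE letters were present for 13 of 27 members (48.1%), against 3.99% of the 27025 genes with a window and 3.44% of the windows. GAS letters were present for 9 of 27 (33.3%), against 9.55% of genes and 8.3% of windows. Among matched members higher in KO, 9 of 12 held an ISRE, and among the other members 4 of 15 did, while a GAS was held by 4 of 12 and 5 of 15. These counts describe letters in a window and were not tested.

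The stretches of those 9 KO-high members are shown because they carry what these promoters share; each is written 5′ to 3′ on the strand of its gene, upstream of the start, with the ISRE letters in capitals. TTTCNNTTTC is the ISRE on the opposite strand. Where a window held several matches, 1 is shown.
Ifit1, chr19:34640784-34640833, plus strand: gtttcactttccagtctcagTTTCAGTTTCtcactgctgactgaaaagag
Rsad2, chr12:26456543-26456592, minus strand: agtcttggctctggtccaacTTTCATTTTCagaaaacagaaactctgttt
Oas1a, chr5:120907526-120907559, minus strand: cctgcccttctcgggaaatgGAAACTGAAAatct
Bst2, chr8:71537567-71537616, minus strand: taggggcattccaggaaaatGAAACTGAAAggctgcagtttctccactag
Gbp2, chr3:142620584-142620633, plus strand: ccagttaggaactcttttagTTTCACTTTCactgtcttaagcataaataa
Gbp3, chr3:142559979-142560028, plus strand: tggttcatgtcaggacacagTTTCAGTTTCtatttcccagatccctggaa
Igtp, chr11:58199502-58199551, plus strand: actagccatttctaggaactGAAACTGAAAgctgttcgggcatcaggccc
Irgm1, chr11:48871421-48871464, minus strand: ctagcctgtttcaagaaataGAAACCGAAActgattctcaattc
Cxcl10, chr5:92349073-92349122, minus strand: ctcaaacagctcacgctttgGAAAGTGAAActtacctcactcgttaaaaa
Counted from its first base to the start, the ISRE lay 14 bases away in Oas1a, 34 in Igtp, 85 in Ifit1 and 213 in Cxcl10, so their distance varied within the group. Irf1, which did not differ between the genotypes but changed with conidia, had a GAS 90 bases before its start and no ISRE letters in its window; it is shown for contrast, with the GAS in capitals.
Irf1, chr11:53769904-53769952, plus strand: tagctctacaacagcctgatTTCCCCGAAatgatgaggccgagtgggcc

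Several other measures also differed between the genotypes, some higher and some lower in KO. S100a8 was higher in KO (1.96 ± 0.38, adjusted p = 0.000111), while S100a9 was not called (0.84 ± 0.63, adjusted p = 0.311). Of 13 neutrophil markers 1 was higher and 1 lower, and their summed signal ran from 1100 to 30500 (median 1600) in WT and from 1200 to 3990 (median 2750) in KO. Of 9 T and NK cell markers 7 were higher in KO (median difference 1.35), among them Cd3g, Cd4, Cd8a and Gzma. Their summed signal ran from 69.6 to 295 in WT (median 123) and from 149 to 681 in KO (median 343), and 8 of 9 had a median under 5.64 in KO. Of 5 plasmacytoid dendritic cell markers, 3 were higher (median difference 0.41), with summed signals of 123 to 320 in WT and 235 to 426 in KO. Alveolar macrophage markers were bright in every group, with summed signals of 90500 to 125000 in WT and 102000 to 126000 in KO, 4 of 12 higher and 1 lower. Lung epithelium markers had a median summed signal of 3260 in WT and 2450 in KO, with overlapping ranges. The log2 ratio of 3' to 5' signal of control transcripts, a sign of RNA quality, had a median of 1.94 in WT and 1.45 in KO, also with overlap. With that ratio as a covariate Bst2 and Trim30a lost their calls. The part of other cells or of RNA quality in the members' difference was not tested. In such bulk RNA a change in the number of cells of a type and a change in RNA per cell cannot be told apart.

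Without the 9 arrays above 8.55 in S100a8 and S100a9 (3 WT and 6 KO), 11 of 32 members were higher (34.4%, beside 16.4% of all genes). Ifit1, Mx1 and Bst2 then missed the threshold at 0.59, 1.02 and 0.57. After quantile normalization, which shifts the median of all genes by -0.13, 9 were higher and 1 lower (28.1% higher, beside 12.7% of all genes), and the split over all genes turned from 2651 higher and 1685 lower to 1568 higher and 2126 lower. Of the 14 members, 8 kept their call under all 59 alternatives: Ifit2, Rsad2, Oas1a, Cxcl10, Gbp2, Gbp3, Igtp and Irgm1. Genotype and any processing run that the labels do not name cannot be told apart.

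In untreated mice alone no member was called between the genotypes (limma, beside 1.32% of all genes higher and 1.07% lower; 2 members had an unadjusted p under 0.05). The differences were above 0 for 28 of 32 members, with a median of 0.25 against -0.06 over all genes, and the 4 KO-minus-WT values under 0 were those of Stat2, Irf8, Trim30a and Ifi47. Ifit2 read 4.68, 5.05, 5.91 and 6.44 in WT and 6.89, 6.46 and 7.33 in KO, so the genotypes did not overlap, and its difference of 1.37 ± 0.66 did not pass (adjusted p = 0.348). Without KO replicate 3, 1 member was called.

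In the response of WT macrophages to the higher dose at 4 h, members went both ways. With e7 conidia against mock, 2 of 32 members rose (6.25%, beside 6.11% of all genes) and 5 fell (15.6%, beside 11.4% of all genes), with a median of -0.37 against -0.08 over all genes. By their main probe sets Irf1 and Cxcl10 rose, and Oas1a, Gbp2, Igtp, Tap1 and Ifi35 fell. The second probe set of Irf8 also fell (-1.41, adjusted p = 0.00457 in limma), while its main one was not called (-0.41). The second probe set of Trim30a rose (0.8, adjusted p = 0.0146), against -0.19 by its main one. The second Gbp2 probe set read -0.59 and missed the threshold (adjusted p = 0.0642). The shares of members that rose and that fell were both near those of genes at large. With dim probe sets left out, 5 of 22 members fell, beside 23.8% of all genes, and 2 rose, beside 12.3%.

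Irf1 encodes a transcription factor induced within hours by interferon gamma and by inflammatory signals. Mock arrays read 9.7, 9.93, 9.96 and 9.87 and e7 arrays 11.02, 10.6, 10.65 and 10.64. The groups were far apart, and the rise was 0.86 ± 0.13, or 1.82-fold (adjusted p = 5.82e-05). Arrays with e6 conidia read 10.18, 10.17, 9.95 and 10.29, between the other groups for the most part. Cxcl10 read 5.38, 4.57, 5.62 and 5.52 with mock and 6.91, 6.24, 6.74 and 7.05 with e7 conidia, again with no overlap, and rose by 1.46 ± 0.36, or 2.76-fold (adjusted p = 0.00475).

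The 5 falls ran from -0.59 to -1 in size. Igtp read 9.12, 9.12, 9.23 and 8.85 with mock and 8.62, 8.39, 8.03 and 8.63 with e7 conidia, a difference of -0.66 ± 0.16 (adjusted p = 0.00407). Oas1a read 9.08, 9.09, 9.05 and 9.17 against 8.63, 8.19, 8.09 and 8.56, a difference of -0.73 ± 0.21 (adjusted p = 0.0124). Neither gene's groups overlapped, and in both the third e7 array, one of the arrays high in S100a8 and S100a9, was the lowest.
Tap1 read 7.96, 8.03, 8.26 and 8.03 with mock and 7.87, 7.16, 6.71 and 7.91 with e7 conidia (-0.66 ± 0.21, adjusted p = 0.0253). Ifi35, a leucine-zipper protein induced by interferon, read 8.48, 8.53, 8.6 and 8.03 against 8.1, 6.9, 6.33 and 8.32 (-1 ± 0.29, adjusted p = 0.0141). For these genes e7 replicates 2 and 3 were low while replicates 1 and 4 lay close to or within the mock range. The log2 ratio of 3' to 5' signal of control transcripts, a sign of RNA quality, was 2.34 and 3.83 in replicates 2 and 3, 1.64 and 1.26 in replicates 1 and 4, and 1.19 to 2.34 with mock. With this ratio as a covariate all 5 falls were still called, at -0.57 to -0.8. Gbp2 overlapped at 1 array and differed by -0.59 ± 0.19 (adjusted p = 0.028).
Without the 3 WT arrays high in S100a8 and S100a9, 2 members were called, Irf1 (0.92) and Cxcl10 (1.58). The 5 falls then missed the threshold with their direction kept. Oas1a (-0.65), Igtp (-0.48) and Gbp2 (-0.4) kept most of their size (adjusted p = 0.111, 0.111 and 0.319), while Tap1 (-0.36) and Ifi35 (-0.57) lost more of it (adjusted p = 0.392 and 0.29). Leaving out e7 replicate 2 or e7 replicate 3 left 3 calls, leaving out e7 replicate 4 gave 8, and leaving out e7 replicates 2 and 3 together left 1, Irf1. Igtp kept its call without any 1 of the 8 arrays. A fit of only the mock and e7 arrays at 4 h, with fewer arrays for the spread, called 0 (Irf1 adjusted p = 0.272).

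**Figure D3:**
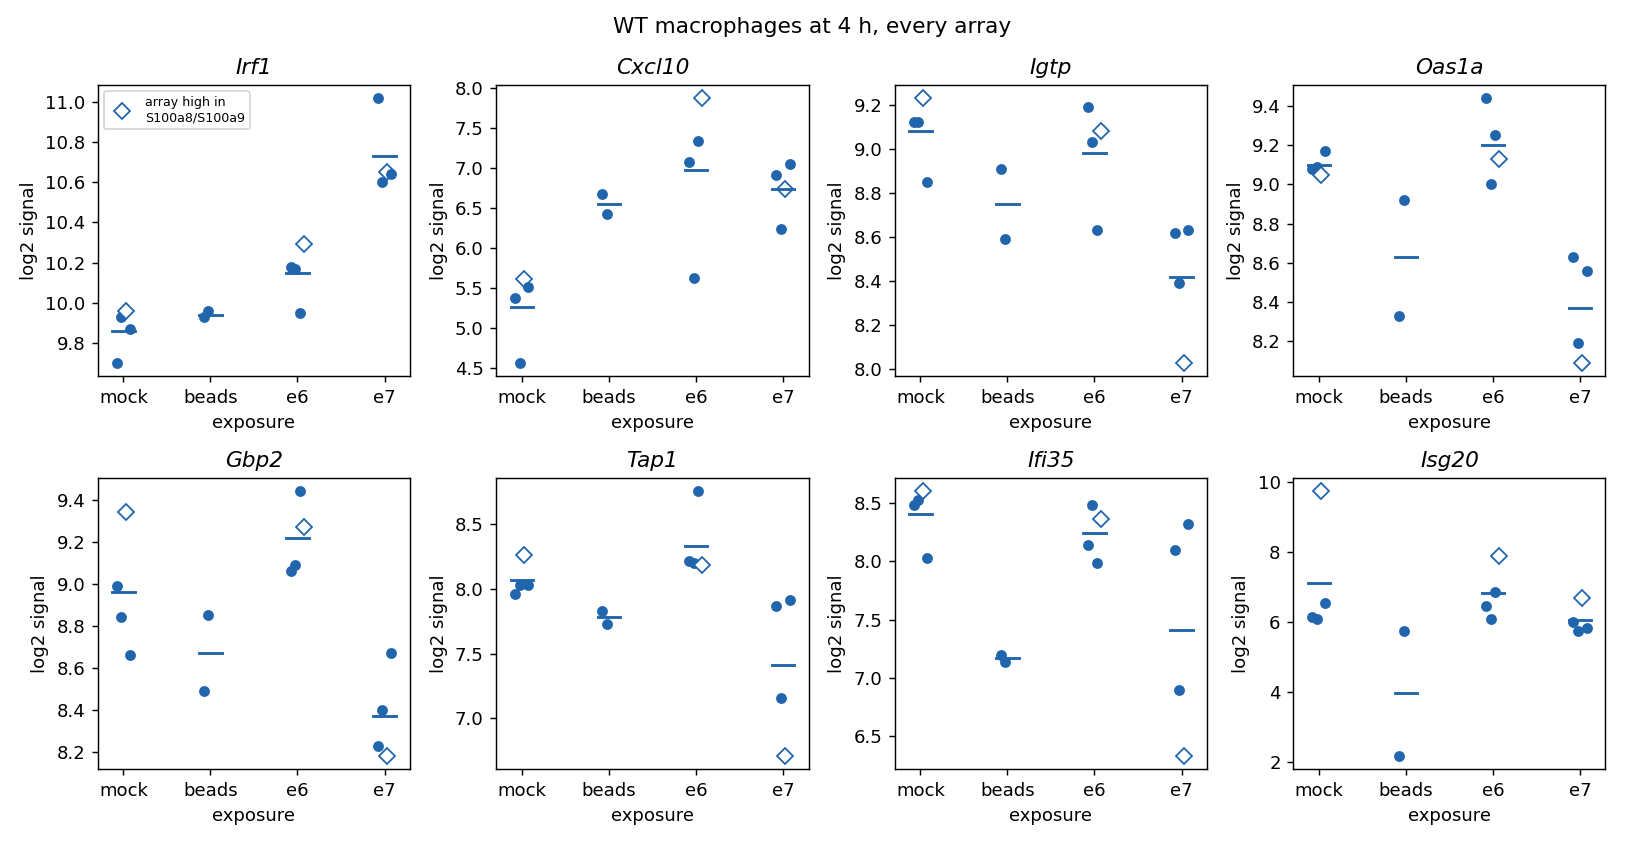
Each point is 1 WT array at 4 h (log2 signal, vertical axis) after mock, beads, e6 or e7 conidia (horizontal axis) for 8 members, with group means as bars and open diamonds for arrays high in S100a8 and S100a9. Irf1 and Cxcl10 are higher with e7 conidia than with mock in every array, while the lowest e7 points of Igtp, Oas1a, Gbp2, Tap1 and Ifi35 are the diamond.

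Along the pathway in the same comparison, the receptor chain gene Ifnar2 fell (-0.81 ± 0.2, adjusted p = 0.00497), as did Jak1 (-0.65 ± 0.22, adjusted p = 0.0383). Jak1 read 9.96, 9.51, 8.7 and 10.52 with e7 conidia against 10.07 to 10.48 with mock, and its difference of means was -0.32 without e7 replicate 3, against -0.72 for Ifnar2. Socs3, a feedback inhibitor of cytokine receptors, rose by 2.62 ± 0.52 (adjusted p = 0.000702). It read 7.67, 7.85, 11.13 and 7.88 with mock and 11.34, 10.46, 12.43 and 10.78 with e7 conidia, the third array of each group being high in S100a8 and S100a9. Its difference of means was 2.23 without e7 replicate 3. None of 9 ligand genes was called (limma; 2 of 9 above 0), and Ifnb1 differed by -0.14 ± 0.33. Of 37 further interferon targets, Parp14, Irgm2 and Trim25 rose and Eif2ak2, Psmb10, Psme1, Tor3a, Zbp1 and Znfx1 fell. Of the 12 macrophage markers 2 fell, Siglecf and Car4, and of 13 neutrophil markers 2 fell, Csf3r and Mmp8; summed neutrophil marker signal was 1340 to 30500 with mock and 1110 to 9560 with e7 conidia. Of 5 plasmacytoid dendritic cell markers Tcf4 fell, and their summed signal was 207 to 320 with mock and 123 to 181 with e7 conidia, with no overlap. Their part in the members' changes was not tested.

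In KO macrophages the calls came at 2 h. With e7 conidia against mock, Ifih1 rose (1 of 32, 3.12%, beside 5.88% of all genes) and Psmb8, Psmb9 and Oas1a fell (9.38%, beside 2.65% of all genes). A dim Tap1 probe set, at a mean of 3.48 over all arrays, also rose (4.99, adjusted p = 0.000528 in limma), against 0.13 by the main one. Psmb8, a catalytic subunit of the immunoproteasome, read 10.22, 10.39 and 10.35 with mock and 8.88, 8.97 and 8.91 with e7 conidia. Both groups were tight and far apart, and the fall was -1.4 ± 0.33, or 2.64-fold (adjusted p = 0.00877), called under each of its 14 alternatives. Psmb9, its partner subunit, read 9.69, 9.56 and 9.68 against 9.18, 8.69 and 8.86 (-0.73 ± 0.23, adjusted p = 0.0444).
Oas1a read 9.85, 9.71 and 9.82 against 8.59, 9.12 and 9.04 (-0.88 ± 0.24, adjusted p = 0.0197). Ifih1 read 10.51, 10.63 and 10.5 against 11.01, 11.35 and 10.89 (0.54 ± 0.18, adjusted p = 0.0494). No array overlapped between the groups in these genes, but Ifih1 and Psmb9 lost their calls whenever any 1 of the 6 arrays was left out. Oas1a lost its call in 3 of the 6 fits, without e7 replicate 1, mock replicate 1 or mock replicate 3, and the count was then 1. The count was 2 without e7 replicate 2, e7 replicate 3 or mock replicate 2. The median over members was 0.11 and turned to -0.28 after quantile normalization, which shifts the median of all genes by -0.21 here. Of 9 ligand genes Ifna5 was called higher (adjusted p = 0.0374), with 4.53, 2.61 and 2.05 with mock and 6.08, 5.95 and 6.82 with e7 conidia. All 3 mock values were dim, so the size of that difference is not firm, and Ifnb1 differed by 1.15 ± 0.38 without passing (adjusted p = 0.0532). Of the 9 T and NK cell markers, Cd4 and Cd8a rose in the same comparison, and the summed signal was 149 to 260 with mock and 457 to 472 with e7 conidia. Summed neutrophil marker signal was 3080 to 3180 with mock and 1610 to 2540 with e7 conidia, and S100a8 read 10.57 to 10.8 against 9.17 to 9.65. None of these ranges overlapped, and their part in the members' changes was not tested. The log2 3' to 5' ratio was 1.22, 1 and 0.92 with mock and 1.45, 1.85 and 3 with e7 conidia. With that ratio as a covariate Psmb8 (-1.17) and Oas1a (-0.79) stayed called, and Psmb9 (-0.54, adjusted p = 0.094) and Ifih1 (0.41, adjusted p = 0.106) did not.

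Psmb8 and Psmb9 in WT at the same time went the same way in smaller size without being called. Psmb8 read 9.77, 10.1, 9.9 and 9.53 with mock at 2 h and 9.06, 9.19, 9.66 and 9.13 with e7 conidia. Psmb9 read 9.31, 9.72, 9.35 and 9.7 against 8.66, 8.72, 9.08 and 8.99, with no overlap and a difference of -0.66 ± 0.2 (adjusted p = 0.0793), the lowest adjusted p of any member there. For WT e7 conidia at 2 h 0 of 32 members were called in limma, beside 1.02% of all genes higher and 0.734% lower, and 5 members had an unadjusted p under 0.05.

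Whether the genotypes differed in their response to e7 conidia was tested directly. At 2 h, 0 of 32 members were called in limma (beside 1.02% of all genes with a KO minus WT response above 0 and 0.323% with one below 0; 3 members at an unadjusted p under 0.05). At 4 h, 0 were called (beside 0.113% and 0.105%; 5 at an unadjusted p under 0.05), and the lowest adjusted p was 0.0766, that of Gbp2. Gbp2 responded by 1.01 ± 0.29 more in KO than in WT, with a 95% interval of 0.43 to 1.59, and Irf1 by -0.49, with an interval of -0.89 to -0.08. Without the fourth WT e7 array 4 members were called at 4 h. The intervals leave room for sizeable differences, so a lack of calls does not show equal responses.

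Dose was compared as e7 against e6 conidia over both times. In WT, Irf1 was higher with e7 conidia (0.48 ± 0.09, adjusted p = 0.00165; 3.12% of members, beside 4.78% of all genes). Oas1a, Gbp2, Igtp, Tap1, Ifi35 and Cxcl9 were lower (18.8%, beside 7.39% of all genes). The second probe sets of Irf8 (-0.85, adjusted p = 0.0218) and Trim30a (0.62, adjusted p = 0.0126) were also called in limma. Their main ones were not (-0.21 and -0.03). Cxcl9 at 4 h read 6.55, 6.67, 6.26 and 5.83 with e6 conidia and 5.31, 1.98, 1.84 and 5.38 with e7 conidia, so e7 replicates 2 and 3 again stood apart, and its difference over both times was -1.45 ± 0.44 (adjusted p = 0.0278). Irf1, Oas1a and Gbp2 kept their calls when any 1 array was left out, and the count was 3 without e7 replicate 2 or 3 at 4 h and 3 without the arrays far apart in S100a8 and S100a9. In KO 0 of 32 were called for dose (limma, beside 0.629% of all genes higher and 0.839% lower; 3 members at an unadjusted p under 0.05), and 1 was called without e6 replicate 1 at 2 h.

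The lower dose against mock gave no called member in any of 4 comparisons in limma. For WT at 2 h the share of all genes called was 0% in either direction (1 member at an unadjusted p under 0.05), and for WT at 4 h it was 0.0161% higher and 0% lower (3 members). For KO at 2 h it was 0% in both directions (0 members), and for KO at 4 h it was 0.0323% higher and 0.0484% lower (1 member). The higher dose in KO at 4 h also gave 0 members, beside 0% higher and 0.00807% lower (2 members at an unadjusted p under 0.05). Cxcl10 with e6 conidia in WT at 4 h read 7.07, 5.63, 7.34 and 7.87, above every mock array, and differed from mock by 1.7 ± 0.36 without being called (adjusted p = 0.113). Without e6 replicate 2 or without mock replicate 3, 1 member was called in that comparison.

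Instillation itself gave no call either. Mock against untreated called 0 members in WT at 2 h (beside 0% of all genes higher and 0% lower; 2 members at an unadjusted p under 0.05), in WT at 4 h (0% and 0.00807%; 0 members), in KO at 2 h (0.00807% and 0%; 4 members) and in KO at 4 h (0.936% and 0.105%; 1 member), all in limma.

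Polystyrene beads give macrophages a particle without fungal surface. Against mock at 4 h, Isg20 was the one called member (3.12% lower, beside 0.573% of all genes lower and 0.597% higher), with 2.18 and 5.76 after beads and 6.16, 6.09, 9.74 and 6.55 with mock (-3.16 ± 0.82, adjusted p = 0.0461). The bead arrays lay far apart, mock replicate 3 was far above its group, and the call was lost without bead replicate 1 or without mock replicate 1, 2 or 3. The first bead value was far under 5.64, and with signals under 50 set to that floor Isg20 was at -1.43 and not called (adjusted p = 0.156). It also missed the threshold with the 3' to 5' ratio as a covariate (-3.48, adjusted p = 0.227) and in a fit of only the mock and bead arrays (adjusted p = 0.415). That log2 ratio was 4.11 and 5.32 in the bead arrays and 1.19 to 2.34 with mock. Against beads, e7 conidia raised Irf1 alone (3.12%, beside 1.28% of all genes higher and 2.7% lower), from 9.93 and 9.96 to the e7 values given above (0.78 ± 0.16, adjusted p = 0.00669). Without the first bead array the difference was still 0.77, with an adjusted p of 0.0917 from the lone array left. Cxcl10 was at 6.67 and 6.43 after beads, within the range of the e7 arrays.

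The members were set against the arrays high in S100a8 and S100a9. In WT 4 h mock replicate 3, 21 of 32 members (65.6%) had the highest value of the 4 arrays, beside 20.1% of all genes, and 3 had the lowest. Rsad2 read 11.14 there against 5.82 to 7.09 in the other 3 arrays, Isg20 9.74 against 6.09 to 6.55, Oasl2 7.79 against 4.15 to 4.92, and Ifit1 7.41 against 3.92 to 5.18. Of the 12 antiviral effectors 8 were highest and 7 lay more than 1 above the mean of the other arrays; Ifit2 (0.03), Oas1a (-0.06), Mx2 (-0.33), Bst2 (0.27) and Mx1 (0.47) did not. Outside the effectors Usp18 (2.11) and Cxcl9 (1.47) were also more than 1 above. Irf1 in the same array was 9.96 against 9.7 to 9.93, Igtp 9.23 against 8.85 to 9.12 and Psmb8 9.78 against 9.25 to 9.82, all near their group. In e6 replicate 4 at 4 h, 14 members were highest (43.8%, beside 29.6% of all genes), Rsad2 with 9.97 and Oasl2 with 7.3 among them. In e7 replicate 3 at 4 h, 11 were highest (34.4%, beside 28.1%) and 11 lowest (34.4%, beside 34.5%), with the highest Rsad2 of its group (10.74) and the lowest Igtp, Tap1 and Ifi35. The log2 3' to 5' ratio was 4.75 in the e6 array against 1.29 to 1.81 in its group and 3.83 in the e7 array against 1.26 to 2.34, but 1.19 in the mock array against 1.37 to 2.34. The part of other cells or of RNA quality in these values was not tested.

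**Figure D4:**
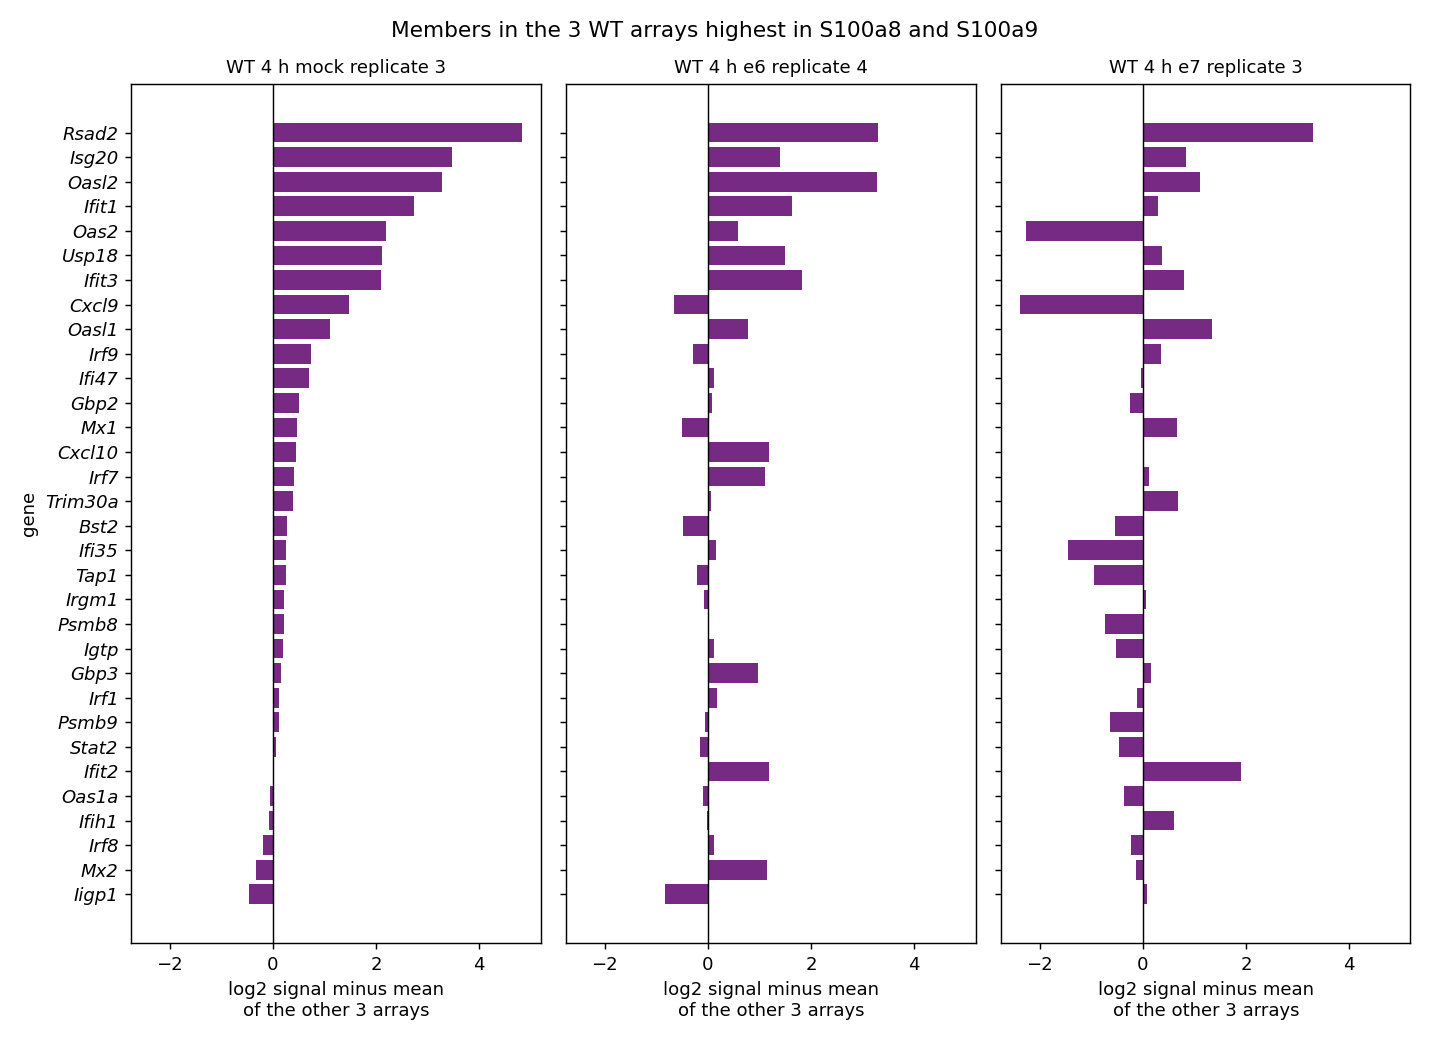
Bars are each member's log2 signal in 1 WT array at 4 h minus the mean of the other 3 arrays of its group (horizontal axis), for the 3 arrays highest in S100a8 and S100a9; genes are in the order of the mock array. Rsad2 is far above its group in all 3 arrays, while Tap1 and Ifi35 are well below it in the e7 array only.

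Members varied together to a limited degree within groups. Over the deviations of 51 arrays from their group means, the median correlation of 496 member pairs was 0.13, against 0 for members with other genes. It was 0.11 with the 3 WT arrays high in S100a8 and S100a9 left out of the correlation. The group means still included those 3 arrays, so their influence on the other arrays of their groups was not removed. Over all arrays, 3.83% of member pairs and 1.39% of the others exceeded 0.5. The pairs highest in order were Ifi35 with Igtp (0.65), Psmb8 with Psmb9 (0.64) and Isg20 with Rsad2 (0.61). With those 3 arrays left out in the same way, Isg20 with Rsad2 fell to 0.45 and Oasl2 with Rsad2 from 0.57 to 0.3. Psmb8 with Psmb9 stayed at 0.61. These values describe shared arrays, which also share labelling and scaling.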

How the data were processed

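The deposited table holds linear signal intensity, 1 number for every probe set on every array, as the authors left it; labelling was the Affymetrix two-cycle procedure, per the labels' protocols. GCOS and RMA are named as tools, with no version or role, per the submitters' processing notes. Every array had a mean of about 500.2 after trimming 2% at each end, so values were already scaled per array. Precision is limited by the number of arrays.

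Of 22690 probe sets, 64 controls were left out and 22626 tested; 20380 had 1 symbol in the platform annotation, 691 several and 1555 none. Log2 intensity, with no pseudocount, filter or further normalization, was fitted with limma 3.58.1 in R 4.3.3, 1 mean per group, all 51 arrays in 1 fit, two-sided, in 20 comparisons. The fit was tested on simulated data. Alternatives were quantile normalization, a floor at 50, dim probe sets left out, a replicate block, only the groups compared, the 3'/5' ratio as a covariate, the mean of a gene's probe sets, and arrays left out.

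Any member could be named, pathway and marker genes by count with those called, and Cybb as a check. The members and lists were chosen with earlier results of these data known. RefSeq promoter windows were searched for motifs by their letters.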

Additional observations from a re-analysis of the deposited data

Results flagged for a closer look

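Of 15 combinations of a called member and a group of 4 arrays that were examined for an array standing apart by Dixon's criterion, 2 had one, and chance alone gives about 1 in 20. Irf1 was at 11.02 in e7 replicate 1 of WT at 4 h, above the other 3 arrays at 10.6 to 10.65. Isg20 was at 9.74 in mock replicate 3 of WT at 4 h, above the other 3 at 6.09 to 6.55; this array was also the highest in S100a8 and S100a9.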

How the results depend on the processing

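Most counts of called members kept within 1.5 times of the reported value (325 of those recomputed), 33 were lower and 19 higher. Counts of 0 that stayed at 0 are among the 325, so that number does not show how firm the called members are. Quantile normalization gave 4 members for beads against mock, 2 for e7 conidia against beads and 1 for dose in KO. A floor at 50 gave 3 and 2 for both bead comparisons. Leaving out dim probe sets gave 1 for WT at 2 h with e7 conidia, 3 for beads against mock, 2 for e7 conidia against beads and 1 for the genotype difference in the 4 h response. A fit of only the groups compared gave 0 for WT at 4 h with e7 conidia, 2 for KO at 2 h with e7 conidia, and 0 for both bead comparisons and WT dose. The 3'/5' covariate gave 2 for KO at 2 h with e7 conidia, 0 for beads against mock, 4 for WT dose and 1 for KO dose. Without the 9 arrays high in S100a8 and S100a9 the counts were 2 for WT at 4 h and 2 for KO at 2 h with e7 conidia, 0 for beads against mock and 3 for WT dose; without only the 3 WT ones, chosen after seeing the data, they were 2, 0 and 3 for WT at 4 h, beads and WT dose. Without e7 replicates 2 and 3 of WT at 4 h, also chosen afterwards, 1 and 1 were called for e7 conidia and dose. Averaging a gene's probe sets gave 1 for the genotype difference in the 2 h response, and turned Tap1 in the WT dose comparison to 0.03 and Trim30a between genotypes to 0.07. The cause was not tested for any of these. With each array left out in turn, counts ran from 14 to 16 for KO against WT, 0 to 1 in untreated mice, 3 to 8 for WT at 4 h with e7 conidia, 0 to 1 with e6 conidia, 3 to 7 for WT dose, 0 to 1 for KO dose, 1 to 2 for KO at 2 h, 0 to 2 for each bead comparison (2 without mock replicate 4 or without bead replicate 2) and 0 to 4 for the genotype difference in the 4 h response; the other comparisons stayed at 0 to 0. Same-numbered arrays did not deviate together (mean r 0.01 in WT and in KO), so the numbers were not used to pair the arrays. Such a value cannot show whether same-numbered arrays were collected or processed together, which the labels do not say. With the replicate block, 2 members were called for beads against mock, and 14 were higher and 1 lower in KO. Dim signal limits the sizes for Mx1, Ifit1, Oasl2 and Usp18, and to a lesser degree for Ifit2.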
